A study of Homo sapiens with 52 samples.

Results

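The proliferation genes were followed in cultures of human neurons, which are taken here to no longer divide. Whether dividing cells remained in the cultures was not tested. RNA had been sequenced from i3Neurons, which arise from the induced pluripotent stem cell line WTC11 when a doxycycline-inducible differentiation factor is switched on. The 34 genes, chosen by symbol, are rows of a table of 63241 genes, and comprise 2 E-type cyclins, 9 genes of DNA replication and nucleotide supply and 23 genes of mitosis. The neurons were moved on day 3 to inserts whose membrane has 1 µm pores, and on day 17 a neurite and a soma fraction were harvested. All cells came from the 1 line WTC11. Untreated cells, without a guide RNA, gave 4 neurite and 4 soma libraries. In the hnRNPA1 experiment, cells with CRISPR interference against hnRNPA1 (KD) gave 6 libraries per fraction, and cells with a non-targeting guide (NT) gave 6 per fraction. In the TDP43 experiment, KD cells gave 5 neurite and 4 soma libraries, a further soma library being left out for its total of 541 counts, and NT cells gave 5 per fraction. The labels do not say whether numbered samples are separate cultures, so p-values measure the spread between these samples, which may be technical. Libraries of untreated cells were made with an earlier version of a total RNA kit and those of both knockdown experiments with a later one, so kit and experiment cannot be told apart.

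Progress through the cell cycle is driven by cyclins, which activate cyclin-dependent kinases and are made and destroyed in turn. E-type cyclins act at the entry into S phase, where the MCM helicase, loaded on origins, unwinds DNA and PCNA clamps polymerases to it. Cyclins A and B, with CDK1, and the Polo-like and Aurora kinases then drive mitosis, until CDC20 and UBE2C turn the anaphase-promoting complex on B-type cyclins. In cells that have left the cycle, complexes of RB-family proteins, E2F factors and the MuvB core repress these genes through E2F sites, mostly in replication genes, and through CHR elements, mostly in mitotic genes.

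The promoters show the difference between both classes in their letters. Promoters of 27 of the 34 genes were matched in RefSeq (GRCh38.p14), each as 300 bases, 250 before and 50 after the start. They were searched on both strands for a CHR element, spelled TTTGAA, for the CCAAT box of those letters, and for an E2F core in the form TTCCCGC, the related form TTCGCGC, the further form TTGCCGC or the last form TTGGCGC. These motifs may overlap, and in MCM7 a CCAAT box and an E2F core do. A CHR stood in 13 of 19 mitotic promoters and in 0 of 8 promoters of E cyclins and replication genes, against 15.43% of all 27305 promoters. An E2F core stood in 4 of 19 mitotic and 6 of 8 replication promoters, against 13.05% of all. A CCAAT box stood in 17 of 19 and in 5 of 8, against 35.7% of all, and CHR and CCAAT together in 12 of 19 and in 0 of 8, against 6.08% of all. The promoters of PLK1 and CDC20, mitotic genes, and of MCM7 and MCM6, helicase subunits, are shown as examples of both classes, with every match to the 3 motifs in capitals, on either strand, 5′ to 3′ along the gene.
PLK1, chr16:23678639-23678938, + strand: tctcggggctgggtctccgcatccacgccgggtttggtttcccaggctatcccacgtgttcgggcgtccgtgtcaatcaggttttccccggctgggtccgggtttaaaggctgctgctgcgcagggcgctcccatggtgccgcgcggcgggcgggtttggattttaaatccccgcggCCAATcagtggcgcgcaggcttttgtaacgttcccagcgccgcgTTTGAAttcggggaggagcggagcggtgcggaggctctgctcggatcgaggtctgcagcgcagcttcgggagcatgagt
CDC20, chr1:43358731-43359030, + strand: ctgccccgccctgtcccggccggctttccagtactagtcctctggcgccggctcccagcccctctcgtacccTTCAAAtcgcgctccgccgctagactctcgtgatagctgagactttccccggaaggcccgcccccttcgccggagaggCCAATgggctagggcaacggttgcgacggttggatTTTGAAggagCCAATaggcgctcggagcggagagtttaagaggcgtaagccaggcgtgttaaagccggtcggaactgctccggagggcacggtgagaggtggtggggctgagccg
MCM7, chr7:100101348-100101647, - strand: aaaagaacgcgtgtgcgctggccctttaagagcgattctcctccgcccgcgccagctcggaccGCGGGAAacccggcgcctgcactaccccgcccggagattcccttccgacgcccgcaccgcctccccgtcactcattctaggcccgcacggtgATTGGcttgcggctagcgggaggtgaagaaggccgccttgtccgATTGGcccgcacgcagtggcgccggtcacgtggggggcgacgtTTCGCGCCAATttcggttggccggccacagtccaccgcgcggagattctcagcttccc
MCM6, chr2:135876394-135876693, - strand: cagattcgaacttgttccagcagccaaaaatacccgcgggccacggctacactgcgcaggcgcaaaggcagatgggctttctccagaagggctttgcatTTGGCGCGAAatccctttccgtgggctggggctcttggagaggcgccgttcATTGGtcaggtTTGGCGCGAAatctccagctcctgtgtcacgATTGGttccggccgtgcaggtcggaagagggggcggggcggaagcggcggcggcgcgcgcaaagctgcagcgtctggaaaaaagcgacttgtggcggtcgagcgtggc
PLK1 holds 1 CHR and 1 CCAAT box and CDC20 holds 2 of each, neither with an E2F core. MCM7 holds 3 CCAAT boxes and 3 E2F cores, and MCM6 holds 2 and 4, neither with a CHR. Cores on opposite strands that share letters are counted separately. The 4 of MCM6 lie in 2 stretches, and 2 of the 3 of MCM7 lie in 1 stretch. A match describes letters in this window and nothing else.

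Libraries held 2541925 to 4346122 counts in untreated neurites, 5212152 to 10519656 in untreated soma and 6257922 to 28902344 in the knockdown experiments. The values given are counts per 1000000 (CPM) on library sizes scaled by TMM, a factor that sets the bulk of genes equal between libraries of 1 experiment. Where all CPM of a group are said to lie above or below those of another, this holds on the scaled values unless library sizes are named. HNRNPA1 RNA was 181 to 222 CPM in hnRNPA1 KD neurites, against 546 to 620 CPM in NT neurites, and 124 to 151 CPM in KD soma, against 328 to 377 CPM in NT soma. TARDBP, the gene of TDP43, was 36.8 to 48.3 CPM in TDP43 KD neurites, against 108 to 125 CPM in NT neurites, and 18.6 to 20.5 CPM in KD soma, against 106 to 117 CPM in NT soma. The 14 neuronal markers summed to 6791 to 27530 CPM in single libraries, with none at 0 in any group. The 10 pluripotency markers summed to group means of 17.2 to 30.1 CPM, with POU5F1 at group means of 0.216 to 0.800 CPM.

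Most of the proliferation genes were low to middling in level, and a few were high. Divided by exon length, the median gene of the 34 stood at percentile 45.9 of 19848 protein-coding genes in untreated neurites and at 36.4 in untreated soma. It stood at percentiles 37.65, 38.45, 39.05 and 40 in neurites and 35.15 to 35.35 in soma of the knockdown experiments. MCM7, a subunit of the helicase, had the highest level per kb in all 8 groups of the knockdown experiments. It stood there at 12.56 to 17.98 CPM per kb and at percentiles 87.1 to 90.8. PCNA, the sliding clamp, came next in these groups at 7.82 to 11.8 CPM per kb and at percentiles 78.8 to 84.2. In untreated neurites CCNB1 at 6.71 ± 0.54, MCM7 at 6.57 ± 1.03 and MCM4 at 6.24 ± 0.91 CPM per kb (SD, n = 4) led, and did not differ beyond their spread. In untreated soma PCNA led at 7.15 ± 0.67 CPM per kb (SD, n = 4). At the low end, CDK1, the mitotic kinase, had 135 counts and NUSAP1, a spindle protein, had 74 counts over all 51 libraries. CDK1, AURKB, UBE2C and NUSAP1 passed the filter on low counts in no experiment. The filter left 28 of the 34 in untreated cells, 26 in the hnRNPA1 and 29 in the TDP43 experiment, and 24 in all 3.

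Neurites were compared with soma to ask which of these messages reach the processes. On the scaled values 9 of 18 tested mitotic genes rose in neurites of untreated cells, 13 of 16 in hnRNPA1 NT and 16 of 18 in TDP43 NT cells, while with library sizes alone 1, 8 and 9 rose and 8, 0 and 2 fell. Replication genes and E cyclins were called in both directions on the scaled values, and with library sizes alone 0 rose and 10 of 10, 5 of 10 and 5 of 11 fell. Of all genes, 11.4%, 9.68% and 8.6% then rose and 79.8%, 61.0% and 66.0% fell in these experiments. The counts of replication genes and E cyclins that fell lie over that share in untreated cells and under it in both control sets. With 10 or 11 genes these gaps are small, and they are no result about the genes as a set. In untreated cells 11 of 28 tested genes rose in neurites and 2 fell, with a median log2 ratio of 0.42. Over all genes tested there, 28.7% were higher and 27.8% lower (56.5% called, edgeR adjusted p under 0.05), with a median of −0.21. In hnRNPA1 NT cells 17 of 26 rose and 2 fell (median 0.55), against 23.5% higher and 24.9% lower of all genes (48.4% called, median −0.05). In TDP43 NT cells 21 of 29 rose and 2 fell (median 0.91), against 24.1% higher and 22.4% lower of all genes (46.5% called, median −0.03). Knockdown cells gave similar splits, with 17 of 26 higher and 1 lower in hnRNPA1 KD (median 0.73), where 19.4% of all genes were higher and 16.4% lower (35.8% called). In TDP43 KD 19 of 29 were higher and 2 lower (median 0.68), where 28.7% of all genes were higher and 29.0% lower (57.7% called). In bulk RNA, fewer cells of a type and less RNA per cell cannot be told apart. The filter keeps a low gene that is high in 1 group, so these counts hold for the tested genes and not for all 34.

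By role, mitotic genes held most of the calls. Of the mitotic genes 9 of 18 tested rose and 1 fell in untreated neurites (median 0.74), 13 of 16 rose in hnRNPA1 NT neurites (median 1.03) and 16 of 18 rose in TDP43 NT neurites, with 0 lower in both control sets by edgeR and by DESeq2 and 15 of 16 and 16 of 18 at an unadjusted p under 0.05 in either direction. Of E cyclins and replication genes 2 of 10 rose and 1 fell in untreated neurites (median −0.34), 4 of 10 rose and 2 fell in hnRNPA1 NT neurites (median 0.18), and 5 of 11 rose and 2 fell in TDP43 NT neurites (median 0.34). In KD cells 13 of 16 and 15 of 18 mitotic genes were higher in neurites, and 4 of 10 and 4 of 11 of the others.

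The composition of the libraries differed between fractions. RNA of the signal recognition particle (7SL) took 0.567 to 1.208% of counts in untreated neurites, against 0.23 to 0.45% in untreated soma, and 3.61 to 29.8% in neurites of the knockdown experiments, against 0.99 to 2.23% in their soma. Its part in the ratios was not tested. TMM factors were 0.603 to 1.03 in neurite and 1.06 to 1.59 in soma libraries. Without TMM, on library sizes alone, 1 gene rose and 18 fell in untreated neurites, where the median of all genes moved to −1.398 and 11.4% of all were higher and 79.8% lower. In hnRNPA1 NT neurites 8 then rose and 5 fell (9.68% and 61.0% of all genes), and in TDP43 NT neurites 9 rose and 7 fell (8.6% and 66.0% of all genes). In hnRNPA1 KD neurites 7 rose and 4 fell (5.9% and 67.2% of all genes), and in TDP43 KD neurites 9 rose and 7 fell (9.86% and 61.6% of all genes). With TMM the median of the 34 was 0.63, 0.60 and 0.94 above that of all genes in the same order of experiments, and the mitotic median was 0.950, 1.076 and 1.206 above it. A change of scaling shifts all genes nearly alike, so these differences are nearly the same with library sizes by arithmetic, which is no check of them.

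**Figure D1:**
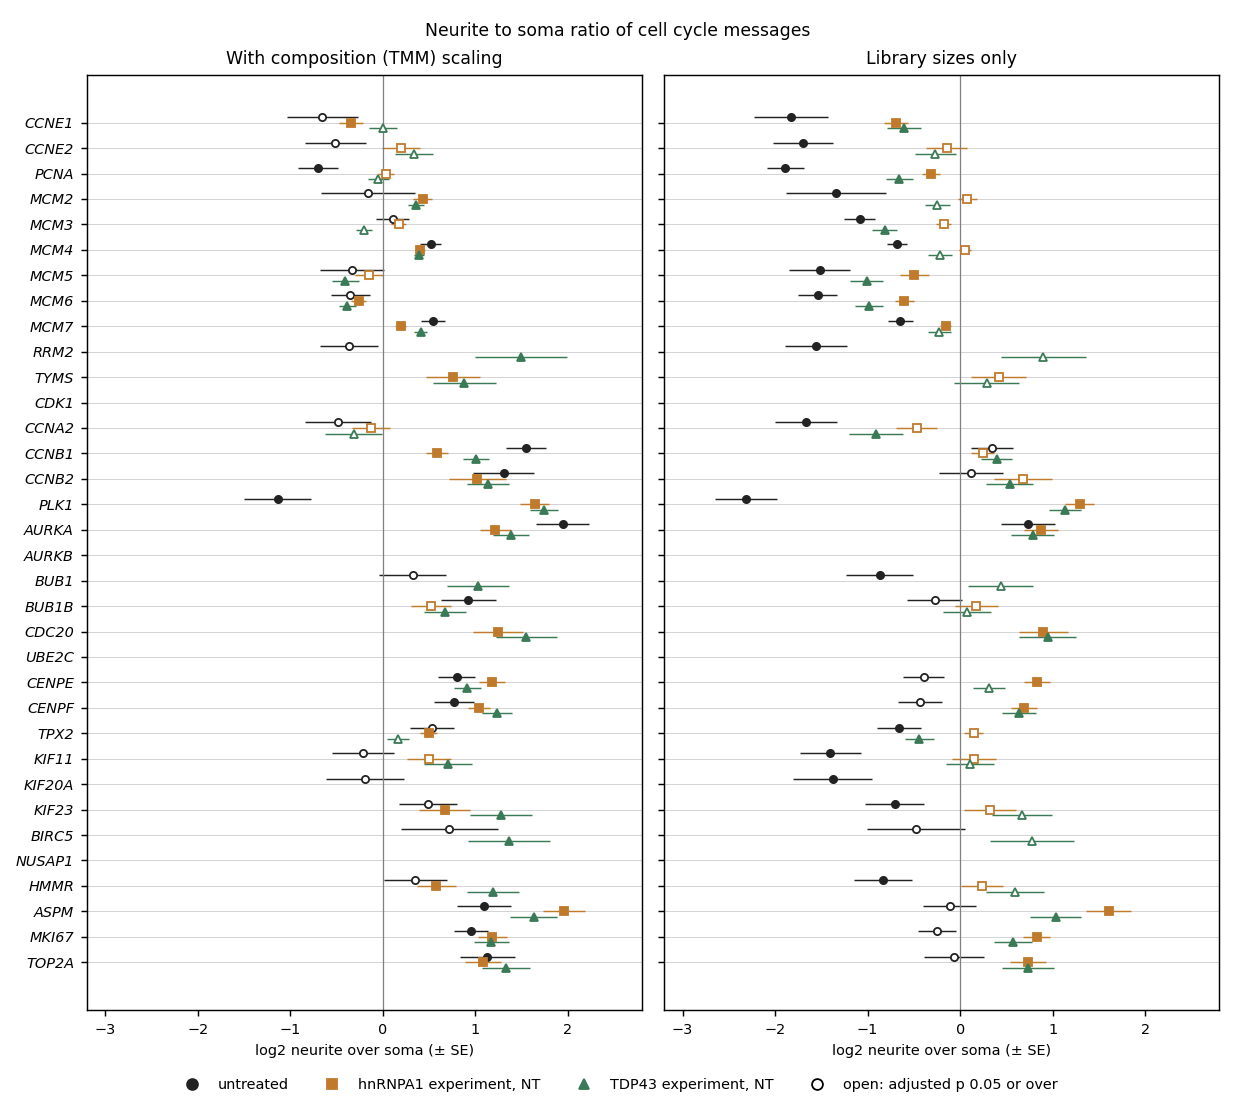
Log2 ratio of neurite over soma for each tested gene (points, bars are standard errors) in untreated, hnRNPA1 NT and TDP43 NT cells, with TMM scaling on the left and library sizes alone on the right; filled points passed adjusted p under 0.05. From CCNB1 down, most points lie right of 0 on the left panel, PLK1 of untreated cells being an exception at −1.137, while on the right panel the untreated points shift to the left, CENPE, CENPF, ASPM, MKI67 and TOP2A of untreated cells are among those that turn below 0, and only AURKA of that experiment stays called higher.

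CCNB1, CCNB2 and AURKA were called higher in neurites of all 3 experiments on the scaled values, and kept ratios above 0 with library sizes alone. CCNB1 encodes cyclin B1, the activator of CDK1 at mitotic entry. CCNB1 read 19.2, 16.9, 16.2 and 16.3 CPM in the 4 untreated neurite libraries, against 4.19, 6.24, 4.98 and 8.47 CPM in the 4 untreated soma libraries. CCNB1 in hnRNPA1 NT cells spanned 4.51 to 7.07 CPM (median 6.3) in neurites, against 3.09 to 4.24 CPM (median 4.14) in soma. CCNB1 in TDP43 NT cells read 7.3, 5.81, 8.14, 5.26 and 5.15 CPM in neurites, against 2.39, 3.41, 3.75, 2.98 and 3.17 CPM in soma. For CCNB1, every neurite library was above every soma library in untreated cells, the hnRNPA1 controls and the TDP43 controls. With library sizes alone the fractions overlapped for CCNB1 in all 3 experiments. CCNB1 had log2 ratios of 1.55 ± 0.22, 0.59 ± 0.12 and 1.01 ± 0.14 in these experiments (edgeR adjusted p = 3.18e-06, 0.000105 and 1.17e-06), and 0.34, 0.24 and 0.39 with library sizes alone. CCNB2 encodes the second B-type cyclin. CCNB2 read 3.09, 5.01, 5.83 and 6.78 CPM in the 4 untreated neurite libraries, against 1.97, 3.04, 1.4 and 2.28 CPM in the 4 untreated soma libraries. CCNB2 in hnRNPA1 NT cells spanned 0.271 to 2.48 CPM (median 1.5) in neurites, against 0.415 to 0.847 CPM (median 0.76) in soma. CCNB2 in TDP43 NT cells read 2.4, 2.4, 2.53, 1.85 and 1.5 CPM in neurites, against 1.234, 0.64, 1.07, 0.812 and 1.02 CPM in soma. For CCNB2, every neurite library was above every soma library in untreated cells and the TDP43 controls, and the fractions overlapped in the hnRNPA1 controls. With library sizes alone the fractions overlapped for CCNB2 in all 3 experiments. CCNB2 had log2 ratios of 1.304 ± 0.33, 1.02 ± 0.31 and 1.135 ± 0.22 in these experiments (edgeR adjusted p = 0.00253, 0.00707 and 0.00012), and 0.11, 0.68 and 0.53 with library sizes alone. Without hnRNPA1 NT neurite sample 1 the CCNB2 call of that experiment was lost, at 0.72. AURKA is the kinase of centrosome maturation and spindle assembly. AURKA read 13.6, 10.02, 8.42 and 11.2 CPM in the 4 untreated neurite libraries, against 1.91, 3.96, 2.24 and 3.03 CPM in the 4 untreated soma libraries. AURKA in hnRNPA1 NT cells spanned 2.03 to 3.53 CPM (median 2.75) in neurites, against 0.906 to 1.58 CPM (median 1.2) in soma. AURKA in TDP43 NT cells read 3.56, 3.6, 2.9, 2.56 and 1.93 CPM in neurites, against 0.916, 1.173, 1.217, 1.172 and 1.185 CPM in soma. For AURKA, every neurite library was above every soma library in untreated cells, the hnRNPA1 controls and the TDP43 controls. With library sizes alone the fractions overlapped for AURKA in untreated cells and the hnRNPA1 controls. AURKA had log2 ratios of 1.94 ± 0.28, 1.216 ± 0.17 and 1.38 ± 0.19 in these experiments (edgeR adjusted p = 5.91e-06, 4.47e-07 and 9.23e-07), and 0.74, 0.87 and 0.78 with library sizes alone. AURKA was the only member of the 34 called higher in untreated neurites under both scalings. In KD cells the ratio of CCNB1 was 0.60 ± 0.13 in hnRNPA1 KD and 0.999 ± 0.16 in TDP43 KD cells, that of CCNB2 0.51 ± 0.36 in hnRNPA1 KD and 1.08 ± 0.24 in TDP43 KD cells, and that of AURKA 0.73 ± 0.21 in hnRNPA1 KD and 1.6 ± 0.20 in TDP43 KD cells.

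**Figure D2:**
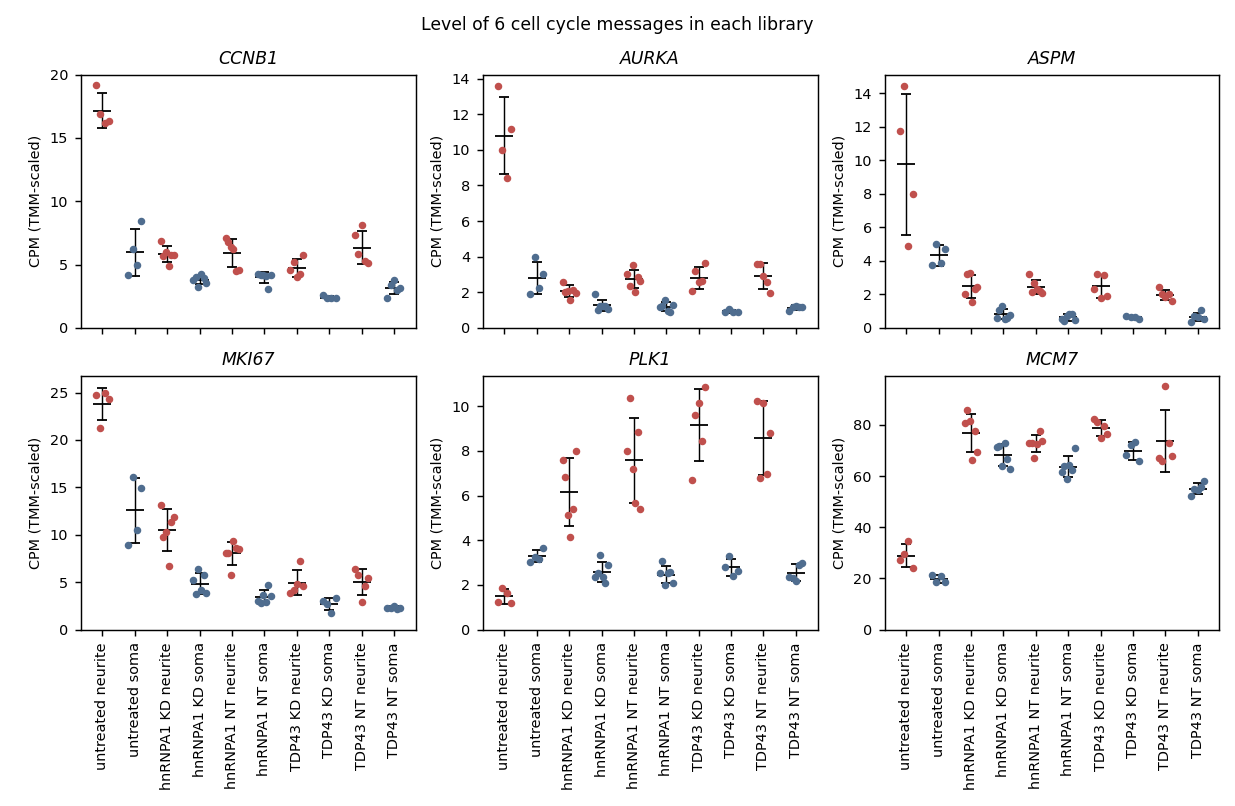
CPM (TMM-scaled, y axis from 0) of 6 genes in each library, by group along the x axis; red points are neurite and blue points soma libraries, and black marks give the mean and SD. CCNB1, AURKA, ASPM and MKI67 were higher in neurite groups on this scale, PLK1 was lower in untreated neurites and higher in those of the other 4 neurite groups, and MCM7 read lower in untreated cells than in the knockdown experiments, which were scaled separately. With library sizes alone the untreated ratios of ASPM and MKI67, and those of MCM7 in all experiments, turn below 0.

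The kinetochore and spindle genes CENPE, CENPF and ASPM were also called higher in all 3 experiments on the scaled values, with untreated ratios that turned below 0 with library sizes alone. CENPE is the kinesin that carries chromosomes to the metaphase plate. CENPE read 8.04, 16.3, 14.9 and 15.9 CPM in the 4 untreated neurite libraries, against 7.17, 9.58, 7.57 and 7.97 CPM in the 4 untreated soma libraries. CENPE in hnRNPA1 NT cells spanned 5.73 to 8.81 CPM (median 6.48) in neurites, against 2.35 to 3.9 CPM (median 2.71) in soma. CENPE in TDP43 NT cells read 6.68, 4.71, 4.88, 6.39 and 4.83 CPM in neurites, against 3.5, 2.99, 2.58, 2.75 and 2.79 CPM in soma. For CENPE, every neurite library was above every soma library in the hnRNPA1 controls and the TDP43 controls, and the fractions overlapped in untreated cells. CENPE had log2 ratios of 0.80 ± 0.20, 1.179 ± 0.14 and 0.91 ± 0.14 in these experiments (edgeR adjusted p = 0.00222, 1.24e-08 and 4.77e-06), and −0.39, 0.83 and 0.31 with library sizes alone. CENPF binds kinetochores and the nuclear envelope. CENPF read 11.8, 17.5, 20.1 and 11.2 CPM in the 4 untreated neurite libraries, against 7.05, 9.81, 7.78 and 12.1 CPM in the 4 untreated soma libraries. CENPF in hnRNPA1 NT cells spanned 5.8 to 8.31 CPM (median 6.49) in neurites, against 2.8 to 3.65 CPM (median 3.24) in soma. CENPF in TDP43 NT cells read 5.34, 4.81, 4.34, 6.25 and 6.22 CPM in neurites, against 2.99, 1.87, 2, 2.25 and 2.29 CPM in soma. For CENPF, every neurite library was above every soma library in the hnRNPA1 controls and the TDP43 controls, and the fractions overlapped in untreated cells. CENPF had log2 ratios of 0.77 ± 0.22, 1.04 ± 0.12 and 1.234 ± 0.16 in these experiments (edgeR adjusted p = 0.00583, 2.06e-08 and 2.69e-07), and −0.43, 0.69 and 0.64 with library sizes alone. ASPM organises spindle poles and keeps neural progenitors dividing. ASPM read 11.8, 14.4, 4.86 and 7.97 CPM in the 4 untreated neurite libraries, against 3.75, 5.02, 3.86 and 4.68 CPM in the 4 untreated soma libraries. ASPM in hnRNPA1 NT cells spanned 2.06 to 3.18 CPM (median 2.26) in neurites, against 0.382 to 0.838 CPM (median 0.607) in soma. ASPM in TDP43 NT cells read 2.4, 2, 1.81, 1.99 and 1.61 CPM in neurites, against 0.358, 0.693, 0.633, 1.04 and 0.508 CPM in soma. For ASPM, every neurite library was above every soma library in the hnRNPA1 controls and the TDP43 controls, and the fractions overlapped in untreated cells. ASPM had log2 ratios of 1.09 ± 0.29, 1.96 ± 0.22 and 1.63 ± 0.25 in these experiments (edgeR adjusted p = 0.00333, 8.46e-09 and 4.78e-06), and −0.12, 1.61 and 1.03 with library sizes alone. For these 3 genes the untreated ratio thus turned below 0 without TMM and those of both control sets stayed above it. In KD cells the ratio was 0.95 ± 0.16 in hnRNPA1 KD and 1.39 ± 0.16 in TDP43 KD cells for CENPE, 0.97 ± 0.13 in hnRNPA1 KD and 0.68 ± 0.15 in TDP43 KD cells for CENPF, and 1.61 ± 0.24 in hnRNPA1 KD and 1.96 ± 0.24 in TDP43 KD cells for ASPM.

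MKI67, whose protein coats mitotic chromosomes and is the usual stain for proliferating cells, and TOP2A, the topoisomerase that untangles sister chromatids, were called in all 3 experiments. MKI67 read 24.7, 21.3, 24.9 and 24.3 CPM in the 4 untreated neurite libraries, against 8.89, 16.1, 10.5 and 14.9 CPM in the 4 untreated soma libraries. MKI67 in hnRNPA1 NT cells spanned 5.75 to 9.35 CPM (median 8.28) in neurites, against 2.8 to 4.74 CPM (median 3.29) in soma. MKI67 in TDP43 NT cells read 6.41, 5.81, 2.9, 4.55 and 5.47 CPM in neurites, against 2.31, 2.29, 2.53, 2.16 and 2.33 CPM in soma. For MKI67, every neurite library was above every soma library in untreated cells, the hnRNPA1 controls and the TDP43 controls. With library sizes alone the fractions overlapped for MKI67 in untreated cells and the TDP43 controls. MKI67 had log2 ratios of 0.95 ± 0.18, 1.183 ± 0.15 and 1.169 ± 0.19 in these experiments (edgeR adjusted p = 0.000191, 8.03e-08 and 9.44e-06), and −0.25, 0.83 and 0.57 with library sizes alone. TOP2A acts before the chromatids part. TOP2A read 8.66, 5.64, 13.9 and 6.78 CPM in the 4 untreated neurite libraries, against 3.37, 5.32, 3.02 and 5.18 CPM in the 4 untreated soma libraries. TOP2A in hnRNPA1 NT cells spanned 2.01 to 3.59 CPM (median 2.85) in neurites, against 1.09 to 1.63 CPM (median 1.3) in soma. TOP2A in TDP43 NT cells read 1.78, 1.6, 2.17, 2.13 and 1.72 CPM in neurites, against 0.836, 0.8, 0.681, 0.631 and 0.677 CPM in soma. For TOP2A, every neurite library was above every soma library in untreated cells, the hnRNPA1 controls and the TDP43 controls. With library sizes alone the fractions overlapped for TOP2A in untreated cells. TOP2A had log2 ratios of 1.129 ± 0.30, 1.08 ± 0.20 and 1.33 ± 0.26 in these experiments (edgeR adjusted p = 0.00309, 2.57e-05 and 0.000108), and −0.07, 0.73 and 0.73 with library sizes alone. Without TMM both ratios of untreated cells were below 0, and neither passed the test. In KD cells the ratio was 1.118 ± 0.15 in hnRNPA1 KD and 0.89 ± 0.19 in TDP43 KD cells for MKI67 and 1.06 ± 0.21 in hnRNPA1 KD and 1.28 ± 0.24 in TDP43 KD cells for TOP2A.

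Other mitotic genes were called in some experiments. BUB1B, a spindle checkpoint kinase, rose in untreated (0.92 ± 0.29, but −0.28 with library sizes alone) and TDP43 NT neurites (0.67 ± 0.23), with 0.52 ± 0.22 in hnRNPA1 NT cells (adjusted p = 0.0503, edgeR). BUB1, its partner, was tested outside the hnRNPA1 experiment and rose in TDP43 NT neurites (1.03 ± 0.34). CDC20, the activator of the anaphase-promoting complex, rose in hnRNPA1 NT (1.242 ± 0.27) and TDP43 NT neurites (1.55 ± 0.33) and was too low to test in untreated cells. KIF23, a kinesin of cytokinesis, and HMMR, a spindle protein, rose in both control sets, by 0.67 ± 0.28 and 1.27 ± 0.33 for KIF23 and by 0.58 ± 0.21 and 1.191 ± 0.28 for HMMR. KIF11, the kinesin that separates spindle poles, rose in TDP43 NT neurites (0.70 ± 0.26), as did BIRC5, the survivin of the chromosomal passenger complex (1.37 ± 0.44). TPX2, an activator of AURKA, rose in hnRNPA1 NT neurites (0.50 ± 0.09). CCNA2, cyclin A, had ratios of −0.48 ± 0.35, −0.13 ± 0.21 and −0.32 ± 0.31 in untreated, hnRNPA1 NT and TDP43 NT cells and passed the test in none of the 3. With library sizes alone the rises named here for the control sets kept their sign, and only those of CDC20 still passed the test.

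Replication genes did not move as 1 group. MCM7 and MCM4, helicase subunits, rose in neurites of all 3 experiments on the scaled values with the filter on low counts, and without that filter MCM7 was 0.163 and not called in hnRNPA1 NT cells (edgeR adjusted p = 0.059). MCM7 read 27.2, 29.4, 34.7 and 23.9 CPM in the 4 untreated neurite libraries, against 21.5, 18.5, 21 and 18.6 CPM in the 4 untreated soma libraries. MCM7 in hnRNPA1 NT cells spanned 66.9 to 77.8 CPM (median 72.9) in neurites, against 58.7 to 70.8 CPM (median 63.2) in soma. MCM7 in TDP43 NT cells read 67, 66, 95.2, 72.7 and 67.8 CPM in neurites, against 52.2, 54.8, 54.5, 55.9 and 58.2 CPM in soma. For MCM7, every neurite library was above every soma library in untreated cells and the TDP43 controls, and the fractions overlapped in the hnRNPA1 controls. With library sizes alone this reversed in untreated cells, at 16.5 to 24.62 CPM in neurites, against 28.2 to 32.13 CPM in soma. It also reversed in TDP43 NT cells, at 54.14 to 62.11 CPM in neurites, against 64.55 to 73.18 CPM in soma. MCM7 had log2 ratios of 0.54 ± 0.13, 0.19 ± 0.06 and 0.41 ± 0.07 in these experiments (edgeR adjusted p = 0.00186, 0.00618 and 2.56e-05), and −0.65, −0.16 and −0.23 with library sizes alone. MCM4 belongs to the same helicase ring. MCM4 read 51.9, 42, 43.42 and 36.7 CPM in the 4 untreated neurite libraries, against 28.3, 30.5, 32.1 and 29.6 CPM in the 4 untreated soma libraries. MCM4 in hnRNPA1 NT cells spanned 42.4 to 51.4 CPM (median 46.9) in neurites, against 32.7 to 38.9 CPM (median 34.9) in soma. MCM4 in TDP43 NT cells read 46.2, 44.7, 42.3, 38.6 and 41.8 CPM in neurites, against 33.5, 32.9, 31.7, 32 and 33.6 CPM in soma. For MCM4, every neurite library was above every soma library in untreated cells, the hnRNPA1 controls and the TDP43 controls. With library sizes alone this reversed in untreated cells, at 25.29 to 31.55 CPM in neurites, against 42.4 to 48.37 CPM in soma. The fractions of both control sets then overlapped. MCM4 had log2 ratios of 0.52 ± 0.12, 0.40 ± 0.06 and 0.39 ± 0.06 in these experiments (edgeR adjusted p = 0.00081, 4.27e-07 and 1.27e-06), and −0.68, 0.05 and −0.22 with library sizes alone. In KD cells the ratio was 0.17 ± 0.06 in hnRNPA1 KD and 0.18 ± 0.07 in TDP43 KD cells for MCM7 and 0.32 ± 0.06 in hnRNPA1 KD and 0.39 ± 0.06 in TDP43 KD cells for MCM4. The direction of MCM7 in every experiment, and of MCM4 in all but the hnRNPA1 NT cells, turned below 0 without TMM. The MCM7 calls in KD cells were lost without the filter on low counts, at 0.125 in hnRNPA1 KD and 0.083 in TDP43 KD cells (edgeR adjusted p = 0.217 and 0.424), and when any of 5 single libraries of the hnRNPA1 experiment (KD neurite samples 1, 2 and 3, KD soma samples 3 and 6) or any of 6 of the TDP43 experiment (KD neurite samples 1, 2 and 4, KD soma samples 1, 2 and 4) was left out, at 0.14 to 0.16 and 0.14 to 0.19.

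MCM6, MCM2 and MCM3 are subunits of the same ring. MCM6 read 6.18, 6.89, 8.1 and 8.77 CPM in the 4 untreated neurite libraries, against 8, 9.96, 11.7 and 9.48 CPM in the 4 untreated soma libraries. MCM6 in hnRNPA1 NT cells spanned 9.22 to 12.3 CPM (median 10.4) in neurites, against 11.6 to 14 CPM (median 12.4) in soma. MCM6 in TDP43 NT cells read 7.48, 7.91, 7.05, 6.82 and 9.76 CPM in neurites, against 9.95, 10.5, 10.2, 10.3 and 10.4 CPM in soma. For MCM6, every neurite library was below every soma library in the TDP43 controls, and the fractions overlapped in untreated cells and the hnRNPA1 controls. MCM6 had log2 ratios of −0.35 ± 0.21, −0.26 ± 0.08 and −0.38 ± 0.09 in these experiments (edgeR adjusted p = 0.152, 0.00829 and 0.000906). MCM6 thus fell in neurites of both control sets, while MCM2 rose there. MCM2 read 0, 0, 4.21 and 3.19 CPM in the 4 untreated neurite libraries, against 2.03, 3.12, 2.17 and 3.03 CPM in the 4 untreated soma libraries. MCM2 in hnRNPA1 NT cells spanned 10.5 to 16.9 CPM (median 14.2) in neurites, against 9.15 to 13.2 CPM (median 9.52) in soma. MCM2 in TDP43 NT cells read 13.4, 12.2, 14.1, 11.2 and 11.8 CPM in neurites, against 9.87, 10.1, 8.18, 10.1 and 10.3 CPM in soma. For MCM2, every neurite library was above every soma library in the TDP43 controls, and the fractions overlapped in untreated cells and the hnRNPA1 controls. MCM2 had log2 ratios of −0.17 ± 0.51, 0.43 ± 0.10 and 0.36 ± 0.09 in these experiments (edgeR adjusted p = 0.788, 0.000927 and 0.00106). In untreated neurites 2 of the 4 libraries held no MCM2 count. MCM3 read 11.1, 11.3, 9.07 and 10.4 CPM in the 4 untreated neurite libraries, against 9.27, 9.2, 9.54 and 10.4 CPM in the 4 untreated soma libraries. MCM3 in hnRNPA1 NT cells spanned 17 to 21.8 CPM (median 19.2) in neurites, against 14.4 to 19.5 CPM (median 17.4) in soma. MCM3 in TDP43 NT cells read 12, 14.1, 16.3, 11.5 and 11.2 CPM in neurites, against 15.8, 16, 13.6, 15 and 13.8 CPM in soma. For MCM3, the fractions overlapped in untreated cells, the hnRNPA1 controls and the TDP43 controls. MCM3 had log2 ratios of 0.11 ± 0.18, 0.17 ± 0.08 and −0.21 ± 0.09 in these experiments (edgeR adjusted p = 0.613, 0.0773 and 0.0522). MCM3 passed the test in none of the 3. In KD cells the ratio was −0.27 ± 0.09 in hnRNPA1 KD and −0.38 ± 0.09 in TDP43 KD cells for MCM6, 0.45 ± 0.11 in hnRNPA1 KD and 0.59 ± 0.09 in TDP43 KD cells for MCM2 and 0.39 ± 0.08 in hnRNPA1 KD and 0.08 ± 0.09 in TDP43 KD cells for MCM3. Without TMM the ratio of MCM3 in hnRNPA1 KD cells was −0.04, and that of MCM2 was 0.08 in hnRNPA1 NT and −0.25 in TDP43 NT cells.

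PCNA, the sliding clamp, was the 1 replication gene called lower in untreated neurites on the scaled values. With library sizes alone others fell there too. PCNA read 7.42, 8.77, 5.51 and 5.18 CPM in the 4 untreated neurite libraries, against 10.5, 10.2, 9.54 and 11.9 CPM in the 4 untreated soma libraries. PCNA in hnRNPA1 NT cells spanned 14.5 to 17.5 CPM (median 15.2) in neurites, against 13.9 to 18.6 CPM (median 15.2) in soma. PCNA in TDP43 NT cells read 11, 8.41, 10.1, 15.3 and 12.6 CPM in neurites, against 12.3, 12.6, 12.9, 10.3 and 11 CPM in soma. For PCNA, every neurite library was below every soma library in untreated cells, and the fractions overlapped in the hnRNPA1 controls and the TDP43 controls. PCNA had log2 ratios of −0.70 ± 0.21, 0.03 ± 0.09 and −0.05 ± 0.12 in these experiments (edgeR adjusted p = 0.00898, 0.771 and 0.757). The untreated call was lost without neurite sample 6 (−0.51) or without neurite sample 7 (−0.52). CCNE1, a cyclin of S phase entry, fell in hnRNPA1 NT neurites (−0.34 ± 0.13), with −0.65 ± 0.39 in untreated and −0.001 ± 0.15 in TDP43 NT cells. CCNE2, its relative, passed in none (−0.52 ± 0.33, 0.20 ± 0.20 and 0.34 ± 0.20 in untreated, hnRNPA1 NT and TDP43 NT cells). MCM5, of the same helicase, fell in TDP43 NT neurites (−0.41 ± 0.15). TYMS and RRM2, enzymes that make deoxynucleotides, rose in TDP43 NT neurites (0.88 ± 0.34 and 1.49 ± 0.50), and TYMS also in hnRNPA1 NT neurites (0.76 ± 0.29). Exons of 9 of the 34 overlap a gene on the opposite strand in GENCODE 29, among them MCM7 with AP4M1, MCM2 with TPRA1, CCNA2 with EXOSC9, PLK1 with ERN2 and TYMS with ENOSF1. The strand setting of the counting is not given, so reads of such pairs cannot be told apart. Exons of 3 of the 34 overlap a gene on the same strand, RRM2 with AC007240.1, BUB1B with BUB1B-PAK6 and NUSAP1 with AC087721.2. Strand cannot separate the reads of those 3 pairs. Annotated pseudogene copies exist for 9 of the 34, among them AURKA, CCNB2, CDC20, MKI67 and PCNA, and how reads were split between copies is not given.

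A ratio within each library needs no scaling between libraries. The 23 mitotic genes together gave 1.3 ± 0.0993 counts per count of the 11 E cyclin and replication genes in untreated neurites, against 0.833 ± 0.155 in untreated soma (SD, n = 4 each). It was 0.35 ± 0.0307 in hnRNPA1 NT neurites, against 0.215 ± 0.0175 in soma (SD, n = 6 each), and 0.341 ± 0.0422 in TDP43 NT neurites, against 0.204 ± 0.0082 in soma (SD, n = 5 each). Neurite and soma libraries did not overlap in these 3 experiments. In KD cells it spanned 0.285 to 0.346 in TDP43 KD neurites, against 0.14 to 0.192 in soma, and 0.254 to 0.37 in hnRNPA1 KD neurites, against 0.176 to 0.258 in soma, where the lowest neurite and the highest soma library overlap. These sums describe the genes chosen and carry no test. The ratio was higher in untreated than in all other libraries. With each experiment scaled separately, the summed mitotic level was 145.5 CPM in untreated neurites, against 55.9 to 66.5 CPM in neurites of the knockdown experiments, and 84.8 CPM in untreated soma, against 27.9 to 37.1 CPM in theirs. The summed E cyclin and replication level went the other way. It was 112.2 CPM in untreated neurites, against 172.5 to 204.3 CPM in neurites of the knockdown experiments. In untreated soma it was 101.6 CPM, against 145.1 to 176.6 CPM in theirs. The genes of this sum did not all go that way. MCM7, the gene of highest level, was 4.53 CPM per kb in untreated soma, against 12.56 to 15.92 in the other soma groups. RRM2 was 1.015 CPM per kb in untreated soma, against 0.0426 to 0.149 in the others. CCNE1, CCNE2 and TYMS were also higher in untreated soma, and PCNA and the other MCM genes were lower. Untreated and other cells differ in kit and experiment, and their parts in these gaps cannot be told apart.

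**Figure D3:**
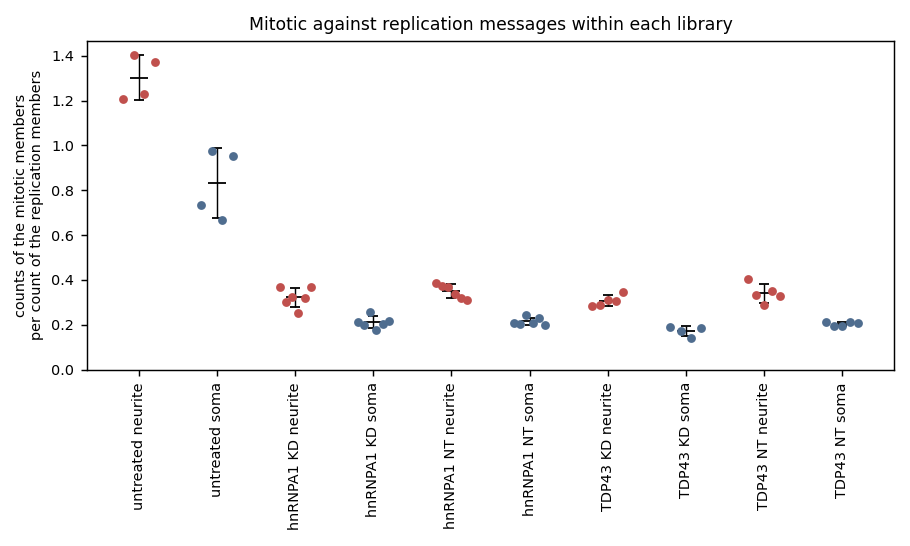
Counts of the 23 mitotic genes per count of the 11 E cyclin and replication genes in each library (y axis from 0), by group; red points are neurite and blue points soma libraries, and black marks give the mean and SD. Untreated neurites lie at 1.205 to 1.404, against 0.669 to 0.975 in untreated soma, and the libraries of both knockdown experiments lie at 0.14 to 0.405.

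The calls were also read by level. Of all tested genes with a mean under 2 CPM, 17.1% were higher in hnRNPA1 NT neurites and 23.0% in TDP43 NT neurites, against 6 of 9 and 11 of 12 mitotic genes in that range. Between 2 and 10 CPM it was 20.1% in both control sets, against 7 of 7 and 5 of 6 mitotic genes. In untreated cells 11.6% of all genes from 2 to 10 CPM were higher, against 6 of 14 mitotic genes, and 44.9% of all genes from 10 CPM up, against 3 of 3. These shares are descriptions of the same calls. The filter on low counts can keep a low gene because it is high in a single group, such as neurites. Low genes that are high in neither fraction can be dropped. The shares under 2 CPM can therefore depend on the filter, for all genes as for mitotic genes. They hold for the tested genes only, and the part of the filter in them was not tested.

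Markers of other cell types were read beside these genes on the scaled values. The 15 neural progenitor markers summed to 259 ± 15.1 CPM in untreated neurites, against 102 ± 3.13 CPM in soma (SD, n = 4 each), to 536 ± 45.0 CPM in hnRNPA1 NT neurites, against 274 ± 9.56 CPM in soma (SD, n = 6 each), and to 417 ± 26.8 CPM in TDP43 NT neurites, against 239 ± 22.4 CPM in soma (SD, n = 5 each). NES, the intermediate filament nestin, read 153, 463 and 360 CPM in neurites, against 40.1, 220 and 192 CPM in soma. It made up most of these sums except in untreated soma. Of those tested, 3 of 7, 8 of 13 and 6 of 13 progenitor markers were higher and 0, 2 and 2 lower, against 28.7%, 23.5% and 24.1% higher and 27.8%, 24.9% and 22.4% lower of all genes. HES5, a defining target of Notch signalling, was at 0 in untreated neurites, and SOX2 had means of 1.27, 3.41 and 10.6 CPM in neurites, against 1.53, 3.08 and 12.5 CPM in soma. The 14 neuronal markers summed to 24420, 13810 and 9428 CPM in neurites, against 8156, 9776 and 7608 CPM in soma. Astrocyte and oligodendrocyte markers summed to 48.0, 24.2 and 21.5 CPM in neurites, against 57.7, 29.03 and 22.6 CPM in soma. Mesenchymal markers summed to 62.3, 71.8 and 66.1 CPM in neurites, against 79.7, 89.7 and 75.8 CPM in soma. Of pluripotency markers 0 of 6, 1 of 3 and 2 of 3 tested were higher in neurites. The part of other cells in the ratios was not tested.

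Untreated cells were set against both control sets to ask whether the neurite ratio differed without a guide RNA. PLK1, the kinase that acts through mitosis from entry to cytokinesis, stood out and was chosen for this account after its values were seen. PLK1 read 1.237, 1.88, 1.62 and 1.2 CPM in the 4 untreated neurite libraries, against 3.05, 3.27, 3.15 and 3.67 CPM in the 4 untreated soma libraries. PLK1 in hnRNPA1 NT cells spanned 5.38 to 10.4 CPM (median 7.6) in neurites, against 1.99 to 3.06 CPM (median 2.53) in soma. PLK1 in TDP43 NT cells read 10.2, 6.81, 10.1, 6.96 and 8.8 CPM in neurites, against 2.35, 2.29, 2.19, 2.89 and 3 CPM in soma. For PLK1, every neurite library was above every soma library in the hnRNPA1 controls and the TDP43 controls, and every neurite library was below every soma library in untreated cells. PLK1 had a log2 ratio of −1.137 ± 0.36 in untreated, 1.64 ± 0.16 in hnRNPA1 NT and 1.74 ± 0.15 in TDP43 NT cells, so its direction was opposite. The difference of the ratios, untreated minus the mean of both control sets, was −3.05 ± 0.35 (edgeR adjusted p = 1.36e-09), and −3.52 with library sizes. Of 33 genes tested 0 were higher and 9 lower in this difference, against 13.9% higher and 27.1% lower of all genes (41.0% called), with a median of −0.59 for the 33 and −0.46 for all genes. The count of lower calls is near the share of all genes and is no result about the 33 as a set. No member was higher by edgeR, 13 of 33 had an unadjusted p under 0.05 in either direction, and DESeq2 called 1 higher and 3 lower (33.9% of all genes). With library sizes alone 0 were higher and 23 lower (7.78% and 50.1% of all genes). The other 8 were CDC20 (−1.54 ± 0.57), TYMS (−1.28 ± 0.49), RRM2 (−1.152 ± 0.46), KIF11 (−1.03 ± 0.38), CCNE2 (−0.998 ± 0.33), ASPM (−0.94 ± 0.30), PCNA (−0.92 ± 0.22) and CENPF (−0.58 ± 0.21). Without untreated neurite sample 5 or 7 or untreated soma sample 5 the count of lower calls was 5. The ASPM call was lost without untreated neurite sample 6 (−0.67), and that of CENPF without untreated neurite sample 4 or 7 or untreated soma sample 5 or 7 (−0.54 to −0.43). Kit, experiment and depth move with this comparison, and cannot be told apart from the absence of a guide.

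Knockdown of hnRNPA1, a nuclear RNA-binding protein that shuttles to the cytoplasm, moved 1 of 26 tested genes in soma and 2 in neurites. In soma 0 rose and 1 fell, against 3.79% higher and 3.3% lower of all genes (7.09% called), with 4 of 26 at an unadjusted p under 0.05, and DESeq2 called 0 and 1 (7.47% of all genes). Without any 1 of NT soma samples 5 and 6 and KD soma sample 2, 1 gene was called higher. The gene that fell was CCNA2, at 0.538 to 1.01 CPM (median 0.962) in KD soma, against 1.09 to 1.92 CPM (median 1.63) in NT soma. All KD soma libraries were below all NT soma libraries, with a log2 change of −0.84 ± 0.21 (edgeR adjusted p = 0.0123). CCNA2 in neurites spanned 0.816 to 2.69 CPM (median 1.46) in KD, against 1.06 to 2.01 CPM (median 1.32) in NT libraries, with 0.12 ± 0.24. Within hnRNPA1 KD cells CCNA2 was higher in neurites than in soma (0.83 ± 0.26), a call lost without KD neurite sample 5 (0.65). In neurites 2 rose and 0 fell, against 8.95% higher and 7.21% lower of all genes (16.2% called), with 5 of 26 at an unadjusted p under 0.05 in either direction, and DESeq2 also called 2 and 0 (16.7% of all genes). MCM3 spanned 20.5 to 27.7 CPM (median 23.1) in KD neurites, against 17 to 21.8 CPM (median 19.2) in NT neurites (0.30 ± 0.09, edgeR adjusted p = 0.0132). MCM2 spanned 14.8 to 20.9 CPM (median 16.3) in KD neurites, against 10.5 to 16.9 CPM (median 14.2) in NT neurites (0.32 ± 0.11, edgeR adjusted p = 0.0397). For both genes the groups overlapped, and the MCM3 call was lost without NT neurite sample 3 (0.25). Without the filter on low counts neither was called (edgeR adjusted p = 0.0547 for MCM3 and 0.0726 for MCM2). The MCM2 call was lost without any 1 of KD neurite samples 1, 2 and 3 or of NT neurite samples 1, 2 and 3 (0.25 to 0.33). With library sizes alone, where 3.1% of all genes were higher and 19.2% lower (22.3% called), 0 rose and 4 fell in neurites (MCM4, PLK1, AURKA and TPX2), with AURKA at −0.61 and PLK1 at −0.47, which on the scaled values were −0.46 ± 0.19 and −0.32 ± 0.16 and passed no test.

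Knockdown of TDP43, an RNA-binding protein that represses cryptic exons, moved 3 of 29 tested genes in soma and none in neurites. In soma 2 rose and 1 fell, against 9.42% higher and 9.53% lower of all genes (19.0% called). CENPF read 4.39, 3.32, 2.81 and 4.39 CPM in the 4 KD soma libraries, against 2.99, 1.87, 2, 2.25 and 2.29 CPM in the 5 NT soma libraries (0.70 ± 0.15, edgeR adjusted p = 0.000969). CENPE read 1.89, 1.62, 1.7 and 1.9 CPM in KD soma, against 3.5, 2.99, 2.58, 2.75 and 2.79 CPM in NT soma (−0.72 ± 0.15, edgeR adjusted p = 0.000785). The messages of these kinetochore proteins thus changed in opposite directions. KD and NT soma overlapped for CENPF, and for CENPE all KD soma libraries were below all NT soma libraries. MCM7 read 68.1, 72.2, 73.2 and 65.9 CPM in KD soma, against 52.2, 54.8, 54.5, 55.9 and 58.2 CPM in NT soma (0.34 ± 0.07, edgeR adjusted p = 0.000827), and all KD libraries were above all NT libraries. With library sizes alone MCM7 was 0.34 and no longer called, which left 1 gene higher and 1 lower (3.53% and 4.1% of all genes). In neurites 0 rose and 0 fell by edgeR, against 14.0% higher and 10.9% lower of all genes (24.8% called), with 4 of 29 at an unadjusted p under 0.05, and DESeq2 called 0 and 0 (24.4% of all genes). The neurite values were 0.14 ± 0.16 for CENPF, −0.24 ± 0.15 for CENPE and 0.11 ± 0.07 for MCM7. Without TDP43 NT neurite sample 4 there were 3 higher and 1 lower calls, without NT neurite sample 6 there were 1 and 2, without NT neurite sample 5 there was 1 lower, and without KD neurite sample 5 there were 2 lower.

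The interaction of knockdown and fraction asks whether the change differed between neurites and soma. For hnRNPA1 0 of 26 genes were called by edgeR, with 2 at an unadjusted p under 0.05, and DESeq2 called 0, against 0.177% of all genes called by edgeR and 0.389% by DESeq2. For TDP43 0 of 29 were called, with 5 at an unadjusted p under 0.05, and DESeq2 called 0, against 10.5% of all genes by edgeR and 11.6% by DESeq2. Without TDP43 NT neurite sample 4 there was 1 call higher, and without NT soma sample 1 there was 1 call lower.

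**Figure D4:**
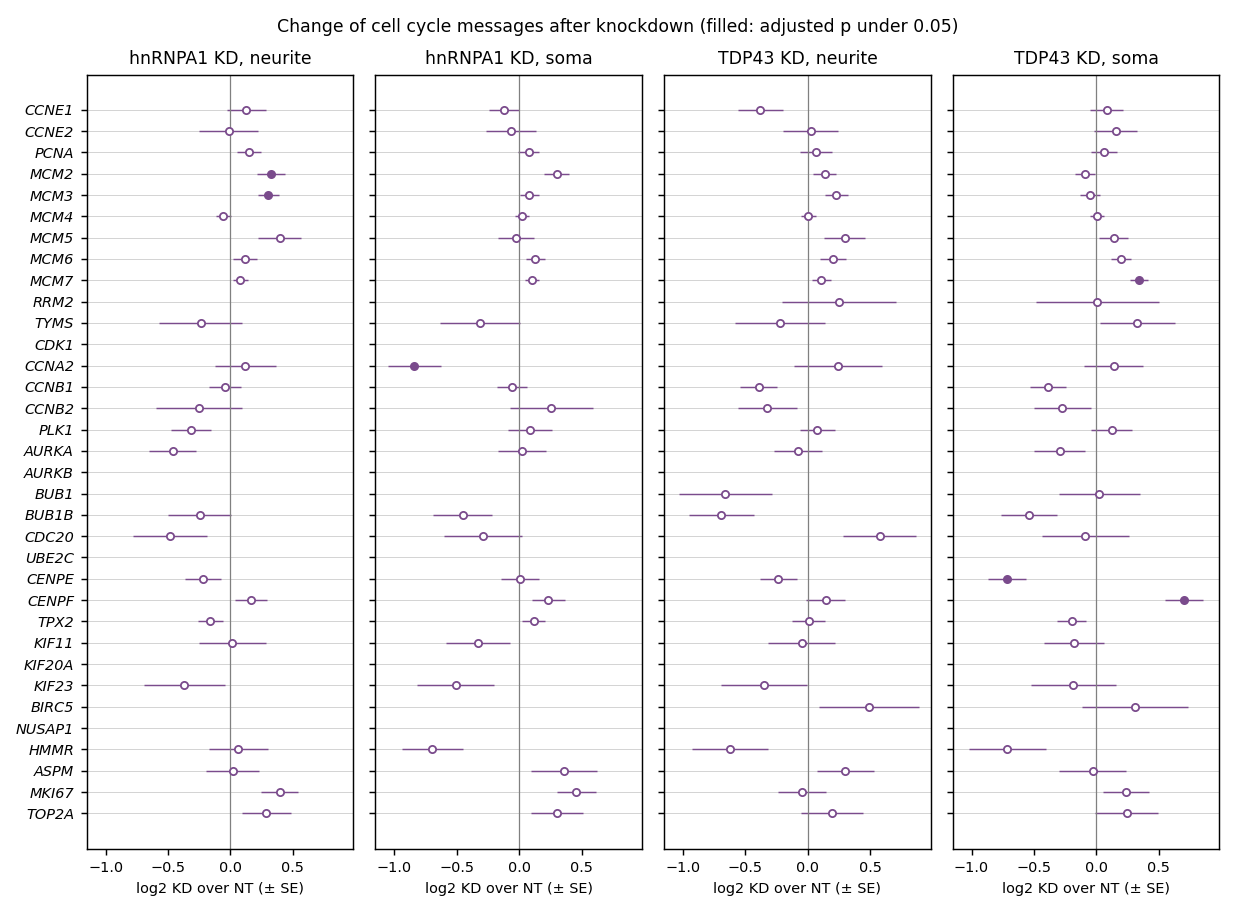
Log2 change of each tested gene in KD over NT cells (points, bars are standard errors), for hnRNPA1 and TDP43 in neurites and soma; filled points passed adjusted p under 0.05. The filled points are MCM2 and MCM3 in hnRNPA1 KD neurites, CCNA2 in hnRNPA1 KD soma, and MCM7, CENPE and CENPF in TDP43 KD soma, with none in TDP43 KD neurites.

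Around these 34, 149 further cell cycle genes in 7 lists were read for context. In neurites 41 of 116 tested rose and 11 fell in untreated, 35 of 125 rose and 18 fell in hnRNPA1 NT, and 51 of 127 rose and 25 fell in TDP43 NT cells, with medians of 0.16, 0.11 and 0.17. Over all genes 28.7%, 23.5% and 24.1% were higher and 27.8%, 24.9% and 22.4% lower in these experiments, the shares against which the counts of each list stand. Of kinetochore, condensin and spindle genes 12 of 30, 14 of 31 and 17 of 32 rose and 0, 1 and 3 fell. Within it the log2 ratio of neurites over soma of the kinesin KIF14 was 2.21 ± 0.26 in hnRNPA1 NT and 2.72 ± 0.28 in TDP43 NT cells, and DLGAP5, a spindle protein, 2.82 ± 0.48 in the TDP43 NT cells. Of origin licensing and firing genes 12 of 30, 6 of 32 and 11 of 33 rose and 3, 2 and 6 fell, among them POLA1, of the priming polymerase, with log2 ratios of 2.60 ± 0.14, 0.85 ± 0.08 and 1.07 ± 0.10. Of genes for mitotic entry and checkpoint 3 of 14, 3 of 16 and 6 of 16 rose and 0, 1 and 2 fell. Of the anaphase-promoting complex 7 of 17, 2 of 17 and 5 of 17 rose and 2, 6 and 6 fell.

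Regulators of these genes were mixed. Of the E2F, RB and MuvB list 5 of 14, 6 of 17 and 7 of 17 rose and 3, 5 and 3 fell in untreated, hnRNPA1 NT and TDP43 NT neurites, beside the same shares of all genes. MYBL2, the MuvB partner that activates mitotic genes, rose by 1.79 ± 0.27 and 3.10 ± 0.30 in the hnRNPA1 and TDP43 controls, and RBL1, the pocket protein p107, by 2.96 ± 0.15, 1.04 ± 0.10 and 1.33 ± 0.09 in the 3 experiments. Of G1 cyclins and their kinases 2 of 7, 3 of 7 and 3 of 7 rose and 1, 2 and 3 fell, with CDK6, a partner of D-type cyclins, with log2 ratios of 1.05 ± 0.22 (−0.15 with library sizes alone), 1.703 ± 0.15 and 2.15 ± 0.22. Of inhibitors 0 of 4, 1 of 5 and 2 of 5 rose and 2, 1 and 2 fell. CDKN1A, the inhibitor p21, rose by 2.69 ± 0.16 and 3.74 ± 0.20 in neurites of the controls, and its log2 ratio in untreated cells minus the mean of theirs was −3.11 ± 0.39. CDKN1B, the inhibitor p27, fell in untreated neurites (−0.73 ± 0.12).

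The same lists were read in KD over NT cells, in log2 values. After hnRNPA1 knockdown 1 of 125 rose and 1 fell in soma, against 3.79% and 3.3% of all genes, and 6 rose and 3 fell in neurites, against 8.95% and 7.21%. CDKN1A rose in KD soma (0.82 ± 0.19), and CCND1, cyclin D1, fell in KD neurites (−0.40 ± 0.14). After TDP43 knockdown 8 of 127 rose and 10 fell in soma, against 9.42% and 9.53% of all genes, and 12 rose and 14 fell in neurites, against 14.0% and 10.9%. These counts are near or under the shares of all genes and are no result about the lists. E2F3, an activating E2F, fell in KD soma (−0.92 ± 0.10) and KD neurites (−0.77 ± 0.14), as did WEE1, the kinase that holds back CDK1 (−0.99 ± 0.16 and −0.74 ± 0.17), and NCAPG, of condensin (−0.60 ± 0.13 and −0.80 ± 0.17). CDC25A, the phosphatase that activates cyclin-dependent kinases, fell in KD soma (−0.99 ± 0.08), where FOXM1, an activator of mitotic genes, rose (0.69 ± 0.18). CCND2, cyclin D2, rose in KD neurites (0.59 ± 0.08).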

How the data were processed

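RNA of neurite and soma fractions of i3Neurons was sequenced as total RNA from 10 ng. The submitters' processing notes name STAR 2.7.11b, featureCounts (Subread 2.0.6) and the build hg38. For annotation release, strand setting and multimapping reads, nothing is given in the sources used here. The deposited table holds expected counts per gene, of which 81.1% of nonzero values were whole within 0.005. They were rounded before testing. Gene names came from a name list (62030 IDs) and GENCODE 29 (58228 IDs). Of 52 libraries 51 were analysed, and 1 with under 100000 counts was left out.

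Within each experiment, genes were filtered by edgeR's filterByExpr by group, scaled by TMM and tested with the quasi-likelihood F test (edgeR 4.0.16, limma 3.58.1, R 4.3.3). Genes were called at a Benjamini-Hochberg adjusted p under 0.05 over all genes tested. Values after ± on log2 ratios are standard errors. Untreated and NT libraries were fitted together for the difference of neurite ratios. Alternatives were library sizes without TMM, no filter, DESeq2 1.42.0, a replicate block and leaving out each library. The edgeR fit was tested on simulated data. The 34 genes, the wider lists and the markers were chosen with earlier results of these data known. Members described in full are the 6 of highest mean CPM, those called the same way in all 3 experiments, and up to 3 called per knockdown comparison. PLK1 was added after its values were seen. Wider genes named are among the 2 of each list and comparison with the largest absolute log2 change of those called.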

Additional observations from a re-analysis of the deposited data

Results flagged for a closer look

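Values of single genes and sums in each group of 4 to 6 libraries, 180 sets in all, were examined for a single library far from the rest, and 15 held 1, and chance gives about 1 in 20. The summed CPM of the 34 genes was 223.0 in hnRNPA1 NT soma sample 6, above the others. The sum of E cyclins and replication genes was 95.11 CPM in untreated soma sample 4, below the others, and 199.7 CPM in TDP43 NT neurite sample 4, above them. MCM7 was 95.16 CPM in that same neurite library. PCNA was 18.63 CPM in hnRNPA1 NT soma sample 1, above the others, and 10.32 CPM in TDP43 KD soma sample 2, below them. MCM2 was 13.24 CPM in hnRNPA1 NT soma sample 6, above the others, and 8.177 CPM in TDP43 NT soma sample 4, below them. CCNB1 was 3.092 CPM in hnRNPA1 NT soma sample 5, below the others, and 2.555 CPM in TDP43 KD soma sample 1, above them. AURKA was 1.883 CPM in hnRNPA1 KD soma sample 1 and 1.052 CPM in TDP43 KD soma sample 2, both above the others, and 0.9157 CPM in TDP43 NT soma sample 1, below them. CENPE was 8.038 CPM in untreated neurite sample 4, and MKI67 was 5.746 CPM in hnRNPA1 NT neurite sample 3, both below the others.

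The log2 neurite ratio in untreated cells minus that in both NT control sets differed by edgeR for 9 genes, with CCNE2 at −0.998, PCNA at −0.919, RRM2 at −1.152, TYMS at −1.277, PLK1 at −3.047, CDC20 at −1.536, CENPF at −0.585, KIF11 at −1.031 and ASPM at −0.939. All 9 were lower, and 27.1% of all genes were called lower and 13.9% higher in the same difference. The count is near that share and is no result about the genes as a set.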

How the results depend on the processing

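With library sizes without TMM, counts of the 34 called higher and lower in neurites became 1 and 18 in untreated, 7 and 4 in hnRNPA1 KD, 8 and 5 in hnRNPA1 NT, 9 and 7 in TDP43 KD and 9 and 7 in TDP43 NT cells. KD against NT gave 0 higher and 4 lower in hnRNPA1 neurites (3.1% and 19.2% of all genes) and 1 higher in TDP43 soma (3.53%), and 23 of 33 ratios were lower in untreated cells than in both control sets (50.1%). Of all genes, 5.9% were higher and 67.2% lower in hnRNPA1 KD neurites and 9.86% and 61.6% in TDP43 KD neurites. Directions turned in untreated cells for MCM7 (−0.65), MCM4 (−0.68), CENPE (−0.39), CENPF (−0.43), ASPM (−0.115), MKI67 (−0.25) and TOP2A (−0.067), in hnRNPA1 KD cells for MCM7 (−0.26), MCM4 (−0.12) and MCM3 (−0.043), in hnRNPA1 NT cells for MCM7 (−0.16), in TDP43 KD cells for MCM7 (−0.37) and MCM4 (−0.15), and in TDP43 NT cells for MCM7 (−0.226), MCM4 (−0.222) and MCM2 (−0.25). Summed CPM of the 34 became 169.9 in untreated neurites, against 284.1 in soma, 224.2 in hnRNPA1 KD neurites, against 240.3, 235.4 in hnRNPA1 NT neurites, against 236.8, 203.4 in TDP43 KD neurites, against 235.5, and 185.9 in TDP43 NT neurites, against 217.1.

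Without the filter, 1 gene was lower in neurites than in soma of hnRNPA1 NT cells. KD against NT then gave 1 higher in hnRNPA1 soma and 0 higher in hnRNPA1 neurites. MCM7 lost its calls of neurites against soma in hnRNPA1 NT (0.163), hnRNPA1 KD (0.125) and TDP43 KD cells (0.083). DESeq2 called 1 higher and 3 lower in the difference of untreated from control ratios. Neurite and soma libraries carry the same sample numbers, and the labels do not say what a number shares. Deviations of same-numbered libraries correlated at −0.195 to 0.35, and in no comparison were all pairs over 0.1. In TDP43 KD cells all 4 libraries correlated best with their own number (0.031 to 0.085), a hint from the data, and pairing was not assumed. With the replicate block, KD against NT gave 1 gene higher in hnRNPA1 soma, and MCM2 in hnRNPA1 neurites was 0.31 and not called (edgeR adjusted p = 0.0555). Leaving out 1 library at a time gave 11 to 12 higher and 0 to 3 lower in untreated neurites, 14 to 20 and 1 in hnRNPA1 KD, 14 to 18 and 1 to 2 in hnRNPA1 NT, 17 to 19 and 1 to 2 in TDP43 KD, and 17 to 21 and 1 to 3 in TDP43 NT neurites. KD against NT gave 0 to 1 higher and 1 lower in hnRNPA1 soma, 0 to 3 and 0 in hnRNPA1 neurites, 2 to 3 and 1 to 2 in TDP43 soma, and 0 to 3 and 0 to 2 in TDP43 neurites. The interaction gave 0 and 0 for hnRNPA1, and 0 to 1 and 0 to 1 for TDP43. Untreated against control ratios gave 0 to 1 higher and 5 to 12 lower. The cause of these changes was not tested. Low counts limit the mitotic genes, with 229 to 464 counts over all 23 in single untreated neurite libraries.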
